A study of Rattus norvegicus with 8 samples.

Results

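Genomic imprinting leaves some mammalian genes active from only the maternal or only the paternal copy. The 10 imprinted genes described here are Igf2, H19, Dlk1, Mest, Igf2r, Grb10, Ascl2, Gnas, Ube3a and Blcap. They were named as a list, with earlier results of these data known, and were taken from the count table by symbol. All had a row among the 16764 symbols, and all 10 were among the 12210 genes that passed the filter on low counts. Having a row was the condition for being described, so it is no result.

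RNA was sequenced from 3 groups of male germ cells of the Brown Norway rat, with 2 libraries in each. The undifferentiated spermatogonia (USg) belonged to a spermatogonial stem cell line that grows in SG medium with GDNF and FGF, and had spent 0 h in the differentiation medium (SD medium). The differentiating spermatogonia (DSg) were cells of the line taken 7 days after they were plated on laminin, of which 120 h were spent in SD medium, which holds all-trans-retinoic acid and neuregulin-1. The spermatocyte-enriched group (Spc) was primary, not cultured as a line: spermatogenic cells that failed to bind plastic, collagen-I or laminin, kept 2.5 days in DMEM:Ham's F12 with 10% fetal bovine serum. USg and DSg therefore share a line, whereas Spc differs from both in source, medium and cell mixture as well as in stage, and these cannot be told apart. The protocol places the USg extraction before plating, but the USg and DSg titles carry the same time mark, so whether they were matched for time is not settled. Reads were counted per gene with no allele information, and which parental copy a read came from was not measured.

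Imprints are erased in the embryonic germ line and set anew according to sex. In the male germ line the control regions of Igf2 with H19, of Dlk1 with Meg3 and of Rasgrf1 acquire DNA methylation before birth, whereas those of Mest, Igf2r, Grb10, Gnas and the Snrpn and Ube3a region stay unmethylated and are marked in the oocyte. In somatic cells Igf2, Dlk1 and Mest are transcribed from the paternal copy, and H19, Igf2r, Ascl2 and, in most tissues, Grb10 from the maternal one. Ube3a is imprinted in neurons, and the Gnas transcript of the stimulatory G protein alpha subunit in a few tissues. Both are otherwise read from both copies.

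The libraries held between 2657291 and 5697165 counts in all. Levels are CPM, the usual count unit relative to library size, scaled by the TMM method for differences in composition. Changes are log2 ratios ± standard error (SE) with p-values adjusted over the 12210 genes, and a change was called where this was under 0.05. The labels do not tie the libraries of a group to separate animals, so the p-values measure the spread between these libraries, which may be technical. The SD of the log2 difference between the libraries of a group was 0.95 in USg, 0.95 in DSg and 0.43 in Spc. Ribosomal RNA genes took 7.81% of the counts in USg 1 and 12.4% in DSg 1, and at most 0.733% in the other 4 libraries. DSg 2 had a count for 96.7% of 1045 olfactory receptor genes, against 23.3 to 64.1% in the others. Spermatocyte markers summed to 8747 and 9274 CPM in Spc and to 675 to 1124 CPM in the line, and 9 of 10 were called higher in Spc than in USg. Undifferentiated markers summed to 1684 and 1972 CPM in USg, 296 and 300.2 CPM in DSg, and 207 and 184 CPM in Spc. Most of the Spc sum was Id4, at 139.73 and 117.57 CPM, which was called higher there than in USg (1.42 ± 0.33, adjusted p = 0.0111). The other 7 of the 8 tested were called lower in Spc than in USg. Markers of somatic testis cells also differed between Spc and the line. The 13 Sertoli cell markers summed to 2963 and 2781 CPM there against 378 to 668 CPM in the line. The 10 peritubular and fibroblast markers with a row summed to 2343 and 2182 CPM against 250 to 530 CPM. No marker of either list was at 0 in Spc, nor in USg 2 or DSg 2. A few genes made up much of the Spc sums: Clu (1011.04 and 787.28 CPM), Ctsl (934.57 and 1009.13 CPM), Tf (582.78 and 588.06 CPM) and Col3a1 (1327.75 and 1142.38 CPM). Amh (4.53 and 1.09 CPM), Rhox5 (0.99 and 1.31 CPM) and Lum (0.79 and 1.09 CPM) stayed low in Spc. Against USg, 8 of 11 tested Sertoli, 7 of 9 peritubular and fibroblast, 2 of 4 Leydig and 5 of 6 macrophage markers were called higher in Spc and none of them lower. Sox9, Dhh and Col1a1 were among those not called. The Leydig list was mixed. Star was at 158.65 and 169.17 CPM in Spc, but Cyp11a1 was at 0.79 and 1.09 CPM there against 6.06 and 5.92 CPM in DSg. Cyp17a1, Insl3, Lhcgr and Hsd17b3 did not pass the filter and were at most 1.74 CPM in Spc. Against DSg, 2 Leydig markers were called higher and 1 lower. Endothelial markers went the other way against USg, with 3 of 5 lower and 1 higher. They summed to 35.5 and 46.2 CPM in Spc against 62.2 to 210 CPM in the line. The part of these cells in the differences given below was not tested. In bulk RNA, fewer cells of a type and less RNA per cell cannot be told apart.

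Start regions are shown for 3 members that were low in Spc and 1 that was high there, since CG dinucleotides are where DNA methylation sits. The windows run from 250 bases before to 50 after the annotated start, on the gene's strand, from RefSeq on build GRCr8, and CG is in capitals. No methylation was measured. Igf2 lies at chr1:207253931-207254230 (minus strand), Dlk1 at chr6:134192347-134192646 (plus), Mest at chr4:60321564-60321863 (plus) and Grb10 at chr14:90816338-90816637 (minus).
Igf2: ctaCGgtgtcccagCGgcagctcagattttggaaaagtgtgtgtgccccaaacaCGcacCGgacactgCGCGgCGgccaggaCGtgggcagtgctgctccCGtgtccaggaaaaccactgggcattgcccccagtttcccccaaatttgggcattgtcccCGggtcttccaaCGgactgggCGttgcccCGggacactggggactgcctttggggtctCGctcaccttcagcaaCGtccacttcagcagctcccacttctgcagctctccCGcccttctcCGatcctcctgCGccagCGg
Dlk1: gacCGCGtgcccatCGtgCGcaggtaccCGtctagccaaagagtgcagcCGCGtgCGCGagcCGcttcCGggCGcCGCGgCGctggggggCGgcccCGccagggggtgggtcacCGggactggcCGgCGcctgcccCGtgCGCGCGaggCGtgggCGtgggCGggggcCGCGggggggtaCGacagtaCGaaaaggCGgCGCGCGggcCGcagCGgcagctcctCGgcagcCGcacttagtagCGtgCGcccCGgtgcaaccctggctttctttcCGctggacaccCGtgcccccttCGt
Mest: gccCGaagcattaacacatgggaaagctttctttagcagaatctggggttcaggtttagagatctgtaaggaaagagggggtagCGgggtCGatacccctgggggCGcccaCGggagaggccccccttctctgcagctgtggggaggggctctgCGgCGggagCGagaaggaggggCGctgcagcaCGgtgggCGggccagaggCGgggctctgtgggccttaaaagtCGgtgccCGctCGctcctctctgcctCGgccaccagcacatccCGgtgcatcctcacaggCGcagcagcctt
Grb10: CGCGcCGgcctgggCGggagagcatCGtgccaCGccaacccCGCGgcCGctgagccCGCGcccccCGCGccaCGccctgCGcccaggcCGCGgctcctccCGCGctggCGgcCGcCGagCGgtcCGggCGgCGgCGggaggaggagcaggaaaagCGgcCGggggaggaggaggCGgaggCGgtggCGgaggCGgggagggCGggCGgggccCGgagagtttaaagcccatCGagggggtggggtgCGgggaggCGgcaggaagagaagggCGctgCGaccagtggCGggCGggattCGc

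The Dlk1 window held 45 CG and the Grb10 window 44, and 1.66% and 1.89% of all 33469 windows of the same length held as many or more. The Igf2 and Mest windows held 19 and 18 CG, and 25.8% and 27.5% of all windows held as many or more. A second Igf2 start had 7, which was also the median of all windows. Of 12 windows found for 9 members, 11 lay above that median; H19 had no window in the table. Among members called lower in Spc than in USg, the first windows of Igf2, Dlk1, Mest and Ascl2 held 19, 45, 18 and 18 CG. Those of Grb10 and Ube3a, called higher, held 44 and 30. Whether CG number goes with direction was not tested.

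**Figure D1:**
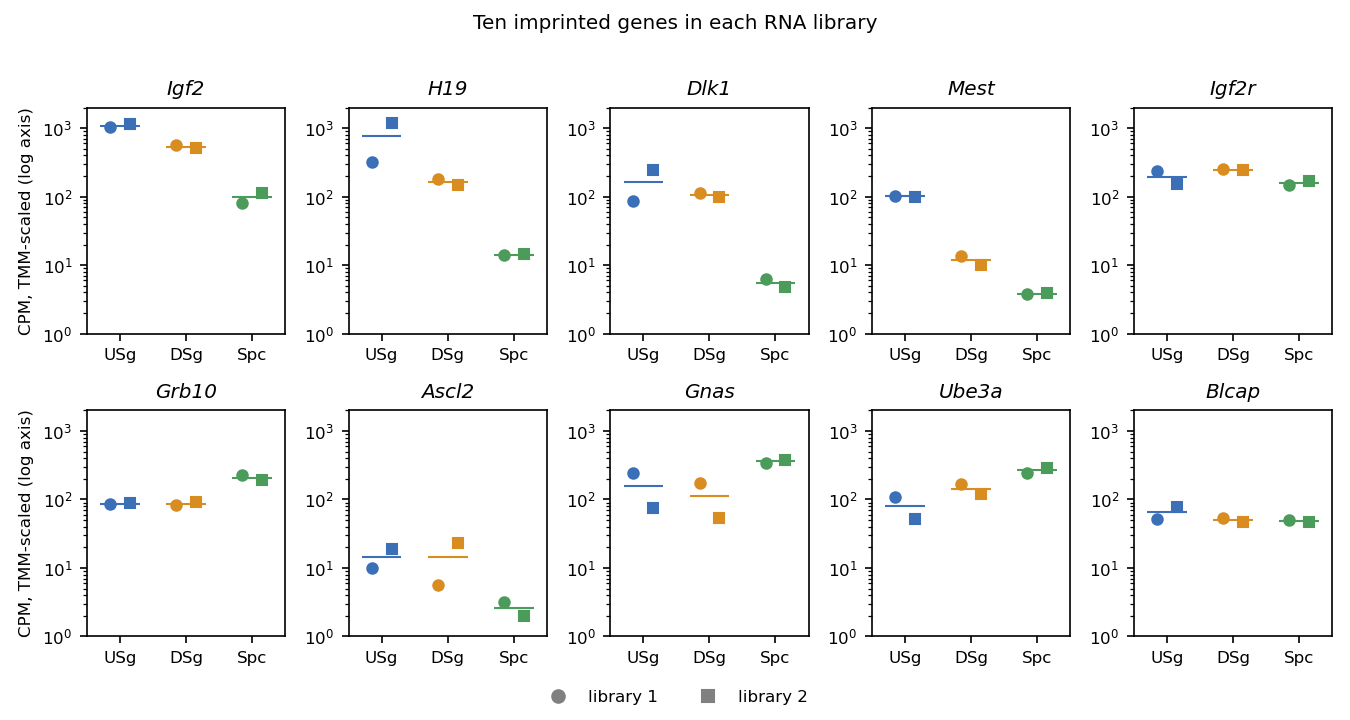
Level of each gene in each of the 6 libraries, in TMM-scaled CPM on a log axis; circles are library 1, squares library 2, and the line is the mean of the group. Igf2, H19 and Mest step down from USg to DSg to Spc, Dlk1 is low and Grb10 high in Spc, and Gnas is about 3 times higher in library 1 than in library 2 of both USg and DSg (241.93 against 74.43 CPM and 171.72 against 53.32 CPM).

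Between DSg and USg 1 of the 10 genes was called, Mest, which was lower, and no member was called higher. The background was 1.92% of all tested genes called lower and 0.565% higher. At an unadjusted p under 0.05 edgeR counted 3 members, Igf2, H19 and Mest, all lower, beside 19.2% of all tested genes in either direction. DESeq2 called 2 members after adjustment, beside 6.93% of the genes to which it gave an adjusted p. Between Spc and USg 5 members were called lower and 2 higher, against a background of 16.6% lower and 17.9% higher (34.5% in all). Between Spc and DSg 5 were called lower and 1 higher, against 11.7% lower and 14.8% higher. The median log2 change of the members was -0.43, -1.47 and -1.13 in these comparisons, beside 0.01, -0.04 and -0.03 for all tested genes. The libraries of DSg and USg did not overlap for 5 members, 2 higher and 3 lower in DSg, beside 21.2% and 21.1% of all tested genes. Those of Spc and USg did not overlap for 3 higher and 6 lower, beside 37.1% and 35.3%. Those of Spc and DSg did not overlap for 3 higher and 6 lower, beside 36.6% and 34.6%. The comparisons share libraries and are not independent of one another. Scaling matters for Spc against DSg: over all genes 1806 were called higher and 1433 lower with TMM, 1486 and 1925 with upper-quartile scaling and 1407 and 1681 with total counts, and those scalings moved the median of all genes by -0.21 and -0.18.

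**Figure D2:**
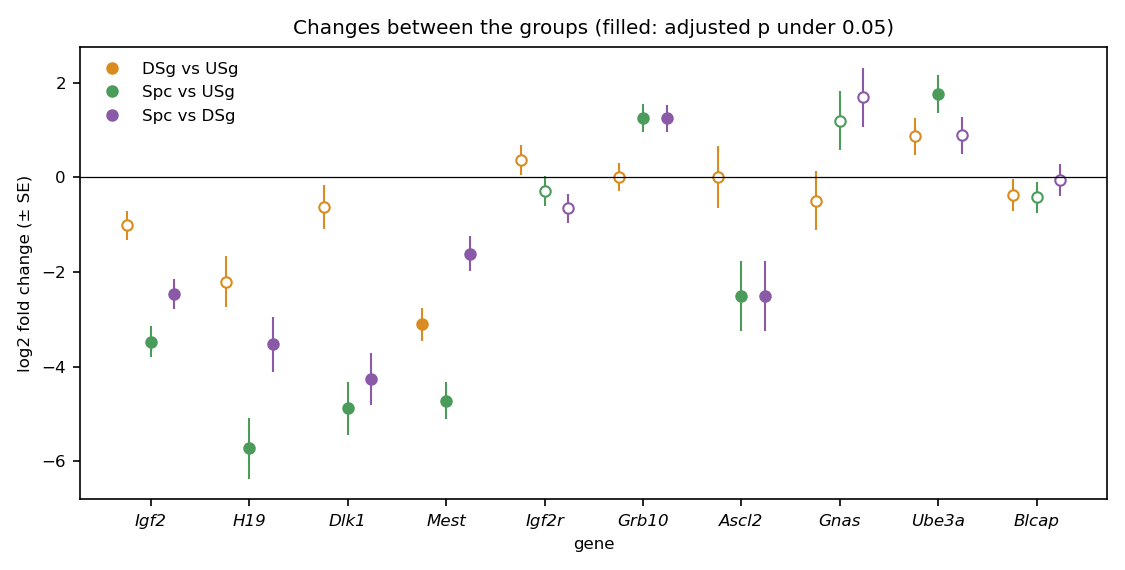
Log2 fold change ± SE of each gene in the 3 comparisons of the groups; filled points have an adjusted p under 0.05. The largest decreases are those of H19, Dlk1 and Mest in Spc against USg (-5.73, -4.88 and -4.72), and Grb10 and Ube3a are the filled points above 0.

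Igf2 encodes a growth factor of fetal tissues that acts through the IGF1 and insulin receptors. It measured 1042.59 and 1139.02 CPM in USg 1 and 2, 572.94 and 507.06 CPM in DSg, and 81.79 and 114.30 CPM in Spc. The libraries of the 3 groups did not overlap, and the level stepped down from USg over DSg to Spc. Spc was lower than USg by -3.48 ± 0.33 (log2; adjusted p = 0.000244) and lower than DSg by -2.46 ± 0.32 (adjusted p = 0.0011). The difference between DSg and USg was -1.01 ± 0.30 with an adjusted p of 0.121 and was not called. Taken within the libraries rich in ribosomal RNA (USg 1 and DSg 1) it was -0.86, and within the others (USg 2 and DSg 2) -1.17.

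Igf2r encodes the receptor that binds Igf2 and delivers it to lysosomes for breakdown. Its levels were 234.22 and 153.48 CPM in USg, 252.12 and 247.20 CPM in DSg, and 149.00 and 168.30 CPM in Spc. DSg was the highest group, and USg and Spc overlapped. None of its 3 comparisons was called: DSg against USg gave 0.37 ± 0.31 (adjusted p = 0.555), Spc against USg -0.29 ± 0.31 (adjusted p = 0.501) and Spc against DSg -0.65 ± 0.31 (adjusted p = 0.152). The ratio of Igf2 counts to Igf2r counts within a library was 4.45 and 7.42 in USg, 2.27 and 2.05 in DSg, and 0.549 and 0.679 in Spc. The libraries of the groups did not overlap in this ratio. The ratio compares libraries and not the molar levels of the genes, since transcript lengths differ.

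Grb10 encodes an adaptor protein that binds insulin and IGF1 receptors and dampens their signal. It stood at 85.28 and 87.60 CPM in USg, 82.43 and 91.56 CPM in DSg, and 223.89 and 188.98 CPM in Spc. USg and DSg overlapped and both lay below each Spc library. Grb10 was higher in Spc than in USg by 1.26 ± 0.29 (adjusted p = 0.0108) and than in DSg by 1.25 ± 0.29 (adjusted p = 0.0146). The call against USg was lost without Spc 1 (adjusted p = 0.234) or without Spc 2 (0.107), and the call against DSg without any 1 of DSg 1 (0.0512), DSg 2 (0.0523), Spc 1 (0.237) or Spc 2 (0.112), while the log2 value stayed between 1.03 and 1.43 under the 17 alternatives of each comparison.

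Other components of IGF signalling were read from a list of 9 genes, 8 with a row and 7 tested. In Spc against USg 1 was called higher and 3 lower, in Spc against DSg 2 higher and 3 lower, and in DSg against USg 0 higher and 1 lower. The shares of all tested genes called higher and lower were 17.9% and 16.6%, 14.8% and 11.7%, and 0.565% and 1.92%. Igf1, the related growth factor that somatic cells of the testis produce, was at 1.16 and 0.53 CPM in USg, 0.40 and 4.31 CPM in DSg, and 78.64 and 117.57 CPM in Spc, a difference from USg of 6.96 ± 0.79 (adjusted p = 0.000428). USg held 6 counts of Igf1 in all, so the size of this change is uncertain. The rise of Igf1 accompanied the higher Sertoli and peritubular marker sums, and their part in it was not tested. Igf1r, the signalling receptor for both ligands, measured 213.77 and 174.14 CPM in USg, 210.91 and 227.81 CPM in DSg and 53.41 and 53.99 CPM in Spc, and was lower in Spc than in USg by -1.85 ± 0.29 (adjusted p = 0.00188). Irs2, an insulin receptor substrate, was the gene called lower in DSg, where it stood at 14.14 and 10.23 CPM against 84.89 and 90.10 CPM in USg (-2.85 ± 0.36, adjusted p = 0.00947). Irs2 was at 75.48 and 56.17 CPM in Spc. The Irs2 call in DSg was lost without DSg 1 or DSg 2, with an adjusted p up to 0.175. Igf2bp2, an RNA-binding protein named for binding Igf2 transcripts, measured 173.25 and 117.87 CPM in USg, 49.70 and 29.35 CPM in DSg, and 7.10 and 11.10 CPM in Spc. It was lower in Spc than in USg by -4.00 ± 0.45 (adjusted p = 0.0004) and than in DSg by -2.11 ± 0.43 (adjusted p = 0.00781), a call lost without DSg 1 (-1.51, adjusted p = 0.0621) or Spc 1 (0.0966). In DSg against USg it gave -1.88 ± 0.41 with an adjusted p of 0.0502, just beyond the threshold. It was called there with no filter, DESeq2, limma-voom and the replicate block. Other scalings, the filter of 5 CPM, the 4 libraries compared and the 2-fold test did not call it.

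H19 is a long noncoding RNA that shares an imprinting control region and enhancers with Igf2 and is read from the opposite parental copy in somatic cells. It measured 323.74 and 1196.00 CPM in USg, 181.82 and 148.91 CPM in DSg, and 13.99 and 14.59 CPM in Spc. The groups did not overlap, but USg 2 was 3.69 times USg 1, the widest gap among the members within USg. Spc was lower than USg by -5.73 ± 0.64 (adjusted p = 0.00039) and than DSg by -3.53 ± 0.58 (adjusted p = 0.00325). DSg against USg gave -2.20 ± 0.54 with an adjusted p of 0.0731. That difference was -0.83 between DSg 1 and USg 1 and -3.00 between DSg 2 and USg 2. With 2 libraries in each group it passed the threshold with no filter, DESeq2 (adjusted p = 0.000774) and the replicate block. It did not pass with limma-voom, other scalings, the filter of 5 CPM, the 4 libraries compared or the 2-fold test. The value turned on the USg libraries: it was -2.98 without USg 1 (adjusted p = 0.000861) and -1.02 without USg 2 (adjusted p = 0.212), and the adjusted p reached 0.350 over the alternatives.

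Since H19 and Igf2 are neighbours, their counts were set against each other within each library. H19 made up 23.7% of the counts of both genes in USg 1 (exact 95% binomial interval 22.3 to 25.1%) and 51.2% in USg 2 (50.4 to 52.1%). It was 24.1% in DSg 1 (22.2 to 26.1%) and 22.7% in DSg 2 (21.1 to 24.4%). In Spc it was 14.6% (11.6 to 18.1%) and 11.3% (8.88 to 14.1%). The intervals of USg 1 and both DSg libraries overlapped, USg 2 stood alone above them, and both Spc libraries lay below. The 2 libraries of USg differed by 1.09 times in Igf2 and by 3.69 times in H19, so that the gap between them was not shared by the neighbours. These intervals cover counting error only, and reads without molecular identifiers are not independent molecules.

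H19 is also the precursor of a microRNA, miR-675, whose gene lies inside the H19 transcript. Its mature arms are shown, with the seed (bases 2 to 8) in capitals, because the count table has a row for this gene; the sequences are from RefSeq, GRCr8, minus strand, at chr1:207161800-207161821 for the 5p arm and chr1:207161766-207161786 for the 3p arm. The row was looked at after the table was seen.
miR-675-5p: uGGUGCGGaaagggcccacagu
miR-675-3p: uGUAUGCCcuaaccgcucagu

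The row of the miR-675 gene held 8 and 322 counts in USg, 10 and 51 in DSg, and 4 and 3 in Spc. Most of the 398 counts thus came from USg 2, the library in which H19 was highest. As a share of the counts of this row and H19 together they were 0.945% in USg 1 and 2.17% in DSg 1, the libraries rich in ribosomal RNA, and 4.57% and 8.44% in USg 2 and DSg 2. The Spc shares, 5.33% (1.47 to 13.1%) and 4.29% (0.893 to 12.0%), rest on so few counts that their 95% intervals cover the share of DSg 1, and in Spc 2 that of USg 1. The labels give total RNA as the material, and reads of the mature microRNA and of its precursor were not separated. Reads in the overlap could be counted for either gene, and the levels of both are uncertain to that extent. The row of Mir483, which lies in an intron of Igf2, held 6 counts in all.

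Dlk1 encodes a membrane protein with EGF repeats that resembles Notch ligands and marks fetal and progenitor cells. Its levels were 85.28 and 243.40 CPM in USg, 114.34 and 99.63 CPM in DSg, and 6.31 and 4.79 CPM in Spc. The DSg libraries lay between those of USg, and both groups were far above Spc. Spc was lower than USg by -4.88 ± 0.56 (adjusted p = 0.000428) and than DSg by -4.26 ± 0.55 (adjusted p = 0.00109). For DSg against USg the log2 value was -0.62 ± 0.46 (adjusted p = 0.496). It was 0.42 between DSg 1 and USg 1 and -1.28 between DSg 2 and USg 2, so the direction differed between the pairs of libraries.

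Meg3 and Dio3 of the Dlk1 region were also tested, and their values differed in direction. Meg3, the noncoding RNA read from the other parental copy and listed under the older symbol RGD1566401, measured 27.40 and 29.02 CPM in USg, 11.72 and 10.77 CPM in DSg, and 12.42 and 14.37 CPM in Spc. It was lower in Spc than in USg by -1.07 ± 0.36 (adjusted p = 0.0469), a call that 9 of 17 alternatives did not make. Meg3 was named as a neighbour after its values were seen. In DSg it was below USg in both libraries (-1.33 ± 0.37, adjusted p = 0.104). Dio3, the deiodinase that inactivates thyroid hormone, at the far end of the region, measured 1.16 and 8.55 CPM in USg, 0.81 and 4.85 CPM in DSg, and 270.60 and 181.58 CPM in Spc. Its rise in Spc was 5.39 ± 0.79 against USg (adjusted p = 0.00131) and 6.20 ± 0.85 against DSg (adjusted p = 0.00144). Dlk1 made up 75.7% and 89.3% of the counts of Dlk1 and Meg3 in USg, 90.7% and 90.2% in DSg, and 33.7% and 25.0% in Spc. Of 53 microRNA hairpins between Dlk1 and Dio3, 39 had a row; none passed the filter, with 108 counts in all, 49 of them in DSg 2.

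Notch signalling genes were read because of the kinship of Dlk1 with Notch ligands: 12 were listed, 11 tested. In DSg against USg 0 were called higher and 1 lower, in Spc against USg 2 higher and 4 lower, and in Spc against DSg 0 higher and 1 lower. Of all tested genes 0.565% and 1.92%, 17.9% and 16.6%, and 14.8% and 11.7% were called higher and lower in these comparisons. The 2 called higher in Spc against USg were Notch2 (1.18 ± 0.38, adjusted p = 0.0402) and Rbpj (0.97 ± 0.30, adjusted p = 0.0349). Notch2 measured 82.19 and 144.94 CPM in USg and 261.5 and 256.5 CPM in Spc. Jag1, a Notch ligand, measured 327.98 and 289.16 CPM in USg, 65.86 and 46.32 CPM in DSg, and 25.42 and 32.00 CPM in Spc. It was lower in DSg than in USg by -2.46 ± 0.33 (adjusted p = 0.0123) and lower in Spc than in USg by -3.42 ± 0.35 (adjusted p = 0.000275). The call in DSg was lost without DSg 1 (0.0940) or DSg 2 (0.183). Notch3, a receptor, was at 24.31 and 34.01 CPM in USg, 18.99 and 45.51 CPM in DSg and 5.91 and 3.48 CPM in Spc (-2.63 ± 0.53 against USg, adjusted p = 0.00572). Hey1, a transcriptional repressor induced by Notch, was at 9.26 and 26.71 CPM in USg, 0.00 and 3.50 CPM in DSg, and 2.76 and 2.18 CPM in Spc, and was lower in Spc than in USg by -2.87 ± 0.93 (adjusted p = 0.0407). The Hey1 call was lost with total-count scaling (adjusted p = 0.0654), in the 2-fold test (adjusted p = 0.101) and without USg 2 (-1.88).

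Mest encodes a membrane protein with an alpha/beta-hydrolase fold and is a mesodermal growth gene of the embryo. It measured 103.02 and 100.60 CPM in USg, 13.74 and 9.96 CPM in DSg, and 3.74 and 3.92 CPM in Spc. The groups did not overlap, and the libraries of a group lay close together. DSg was lower than USg by -3.11 ± 0.36 (adjusted p = 0.00697), with -2.86 between DSg 1 and USg 1 and -3.27 between DSg 2 and USg 2. Spc was lower than USg by -4.72 ± 0.39 (adjusted p = 0.00015) and than DSg by -1.61 ± 0.38 (adjusted p = 0.0147). Without DSg 1 or DSg 2 the first of these calls was lost (adjusted p = 0.0762 and 0.144), and 0 of all genes tested in that comparison were called then, while the log2 value was -3.54 and -2.88. The call against DSg was lost without DSg 1 (0.0839), Spc 1 (0.222) or Spc 2 (0.176).

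Copg2, a coat protein gene that overlaps the end of Mest on the opposite strand, was not called lower: it stood at 170.94 and 188.20 CPM in USg, 193.94 and 126.29 CPM in DSg, and 270.20 and 268.01 CPM in Spc. Its change in Spc against USg was 0.58 ± 0.31 (adjusted p = 0.175); it too was named after its values were seen. Mest took 37.6% and 34.8% of the counts of this pair in USg, 6.61% and 7.31% in DSg, and 1.37% and 1.44% in Spc. Both DSg libraries lay below both USg libraries and above both Spc libraries, and the 95% intervals of the groups did not overlap. If the counting used no strand, reads of the overlap could go to either gene.

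**Figure D3:**
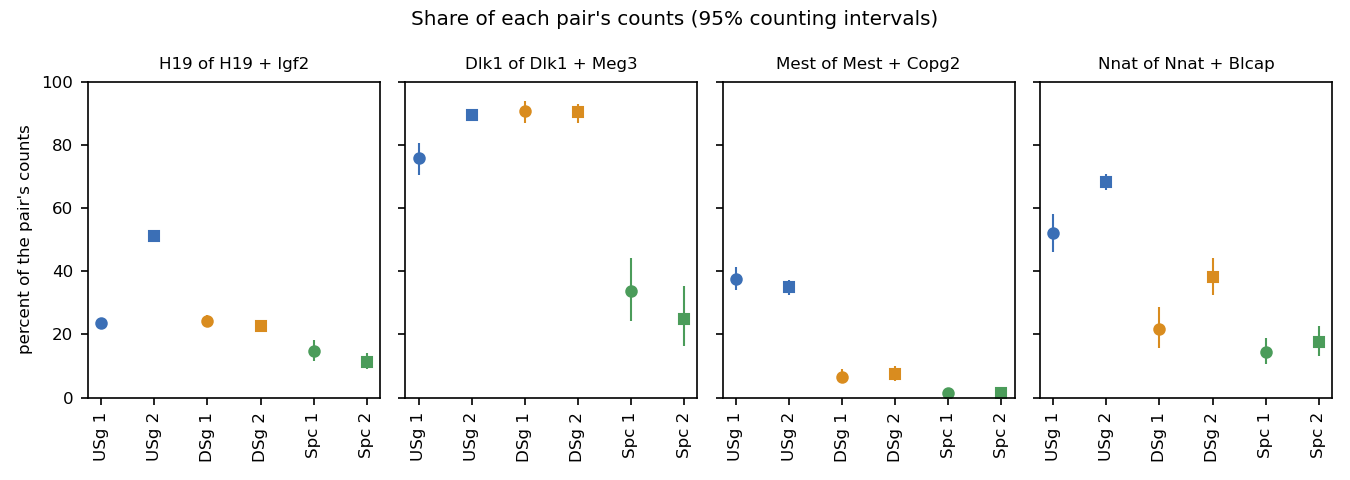
Share of the counts of a pair of neighbouring genes that fell on the first of them, in percent, for each library, with exact 95% binomial intervals (counting error only); blue is USg, orange DSg and green Spc, circles library 1 and squares library 2. The Mest share drops from 37.6% and 34.8% in USg to 1.37% and 1.44% in Spc, whereas the H19 share of USg 2 (51.2%) stands apart from all others.

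Ascl2 encodes a basic helix-loop-helix transcription factor that the placenta requires. It was the member with the fewest counts, at 10.03 and 19.05 CPM in USg, 5.66 and 23.43 CPM in DSg, and 3.15 and 1.96 CPM in Spc. The USg and DSg libraries overlapped, with DSg 2 at 4.14 times DSg 1, and all 4 lay above Spc. The highest olfactory receptor gene of a library stood at 15.8 and 5.34 CPM in USg, 5.66 and 7.27 CPM in DSg, and 14.0 and 18.7 CPM in Spc. Ascl2 was above it in USg 2 and DSg 2 and at or below it in the other 4. H19, Dlk1 and Mest were likewise at or below it in both Spc libraries. The 95th percentile of the olfactory receptor genes was 0.356 to 2.69 CPM, and Ascl2 was above that of its library throughout. Spc was lower than USg by -2.51 ± 0.73 (adjusted p = 0.0277) and than DSg by -2.51 ± 0.73 (adjusted p = 0.0346), and DSg against USg gave 0.00 ± 0.66 (adjusted p = 0.997). The call against USg was lost without USg 2 (0.0758) or Spc 2 (0.0642). That against DSg was lost without DSg 2 (-1.14, adjusted p = 0.290) or Spc 2 (0.0945), and by limma-voom (0.0853).

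Ube3a encodes a ubiquitin ligase. Its levels were 106.88 and 51.81 CPM in USg, 166.87 and 121.72 CPM in DSg, and 243.99 and 290.44 CPM in Spc. The groups did not overlap, and the order was the reverse of that of Igf2, with Spc highest. Spc was higher than USg by 1.76 ± 0.40 (adjusted p = 0.00962). The steps on either side of DSg were not called: DSg against USg gave 0.87 ± 0.39 (adjusted p = 0.269) and Spc against DSg 0.89 ± 0.39 (adjusted p = 0.122).

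Gnas encodes the stimulatory G protein alpha subunit and further transcripts from other promoters, which the counts per symbol do not separate. It measured 241.93 and 74.43 CPM in USg, 171.72 and 53.32 CPM in DSg, and 345.68 and 378.40 CPM in Spc. Both Spc libraries were above the other 4, while USg and DSg overlapped. Library 1 was 3.25 times library 2 in USg and 3.22 times in DSg, so the libraries rich in ribosomal RNA were also those with more Gnas; the part of this in the result was not tested. Within each pair DSg was below USg by nearly the same amount, -0.49 and -0.48. No comparison was called: DSg against USg gave -0.49 ± 0.62 (adjusted p = 0.706), Spc against USg 1.20 ± 0.62 (adjusted p = 0.164) and Spc against DSg 1.69 ± 0.63 (adjusted p = 0.0783). The last was called with no filter, DESeq2, limma-voom, the 4 libraries compared and the replicate block. Other scalings, the filter of 5 CPM and the 2-fold test did not call it. Its value was 2.88 when USg 1 and DSg 1 were both left out, where the spread comes from the 2 Spc libraries alone.

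Blcap encodes a small conserved protein whose gene carries another imprinted gene, Nnat, in an intron. It was the steadiest member, at 52.09 and 77.81 CPM in USg, 54.14 and 46.59 CPM in DSg, and 50.65 and 46.37 CPM in Spc. USg 2 was the highest library, and the others lay within 46.37 to 54.14 CPM. Its 3 log2 values were -0.37 ± 0.33, -0.43 ± 0.33 and -0.05 ± 0.33 for DSg against USg, Spc against USg and Spc against DSg, with adjusted p of 0.579, 0.346 and 0.920. Nnat, a membrane proteolipid of developing neurons, was at 56.34 and 166.66 CPM in USg, 14.95 and 28.81 CPM in DSg and 8.47 and 9.80 CPM in Spc. It was lower in Spc than in USg by -3.61 ± 0.58 (adjusted p = 0.00199), and DSg against USg gave -2.34 ± 0.55 (adjusted p = 0.0650). As with H19, USg 2 was the higher USg library, by 2.96 times. Whether the 2 genes of the locus changed differently was not tested, and reads in the overlap could be counted for either.

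A wider list of 60 imprinted genes was read beside the members; 45 had a row, 43 by symbol and 2 by an older symbol, and 39 were tested. In DSg against USg 0 were called higher and 1 lower, in Spc against USg 7 higher and 9 lower, and in Spc against DSg 4 higher and 6 lower. The shares of all tested genes called higher and lower were 0.565% and 1.92%, 17.9% and 16.6%, and 14.8% and 11.7%. Median log2 changes of the wider list were -0.06, 0.08 and -0.15, near those of all tested genes. In DSg against USg edgeR counted 12 of the 39 at an unadjusted p under 0.05, where 19.2% of all tested genes were, and DESeq2 called 4 after adjustment, where it called 6.93% of all genes. Members and wider list together gave 9 higher, 14 lower and 26 not called of 49 in Spc against USg.

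Rasgrf1, a guanine nucleotide exchange factor whose control region is marked in the paternal germ line, was the gene called lower in DSg. It measured 77.94 and 90.99 CPM in USg, 27.88 and 28.27 CPM in DSg, and 9.85 and 8.27 CPM in Spc, stepping down like Igf2 and Mest. DSg was lower than USg by -1.59 ± 0.32 (adjusted p = 0.0440), Spc than USg by -3.22 ± 0.35 (adjusted p = 0.000348) and Spc than DSg by -1.63 ± 0.34 (adjusted p = 0.00881). The call in DSg was lost in 8 of 17 alternatives, among them upper-quartile and total-count scaling and the fit of the 4 libraries compared. That of Spc against DSg was lost without DSg 1 (0.0509), Spc 1 (0.128) or Spc 2 (0.192).

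Besides Rasgrf1 and Nnat, the lowest in Spc against USg were Slc22a3, an organic cation transporter next to Igf2r (-3.24 ± 0.49), Sfmbt2, a Polycomb-group gene (-2.77 ± 0.34), and Slc38a4, an amino acid transporter (-2.56 ± 0.46). Slc22a3 measured 29.33 and 19.94 CPM in USg, 38.38 and 27.47 CPM in DSg and 3.35 and 1.74 CPM in Spc, so it was low in Spc while its neighbour Igf2r was not called. Against DSg, Slc22a3 gave -3.66 ± 0.49, Sfmbt2 -2.39 ± 0.34, Zim1 -2.38 ± 0.47 and Inpp5f, a phosphoinositide phosphatase, -1.43 ± 0.42, all called. The Inpp5f call was lost without any 1 of the DSg and Spc libraries, with an adjusted p from 0.0738 to 0.240.

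Besides Dio3, the highest in Spc against USg were Asb4, Htr2a, Nap1l5 and Gatm. Gatm, the first enzyme of creatine synthesis, measured 5.02 and 4.45 CPM in USg, 2.83 and 3.23 CPM in DSg and 55.58 and 47.46 CPM in Spc (3.45 ± 0.39 against USg, adjusted p = 0.000428). Htr2a, a serotonin receptor, rose by 3.91 ± 0.82 to 7.69 and 8.49 CPM, and Nap1l5 by 3.52 ± 0.84 to 11.23 and 7.84 CPM. USg held 4 counts of Htr2a and 7 of Nap1l5 in all, so the size of these changes is uncertain. Both calls were lost without Spc 1 or without Spc 2. Asb4 was at 12.02 and 15.68 CPM in Spc; USg held 3 counts of it in all, so no fold is given. Peg3, a zinc finger gene of the paternal copy, was also called higher in Spc against DSg (2.64-fold, adjusted p = 0.0154), at 181.12 and 188.76 CPM there against 71.52 and 68.67 CPM. That call too was lost without any 1 of these libraries, with an adjusted p from 0.0501 to 0.116. These rises stood beside the somatic marker sums of Spc given above, and whether they came from germ cells or somatic cells was not tested.

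**Figure D4:**
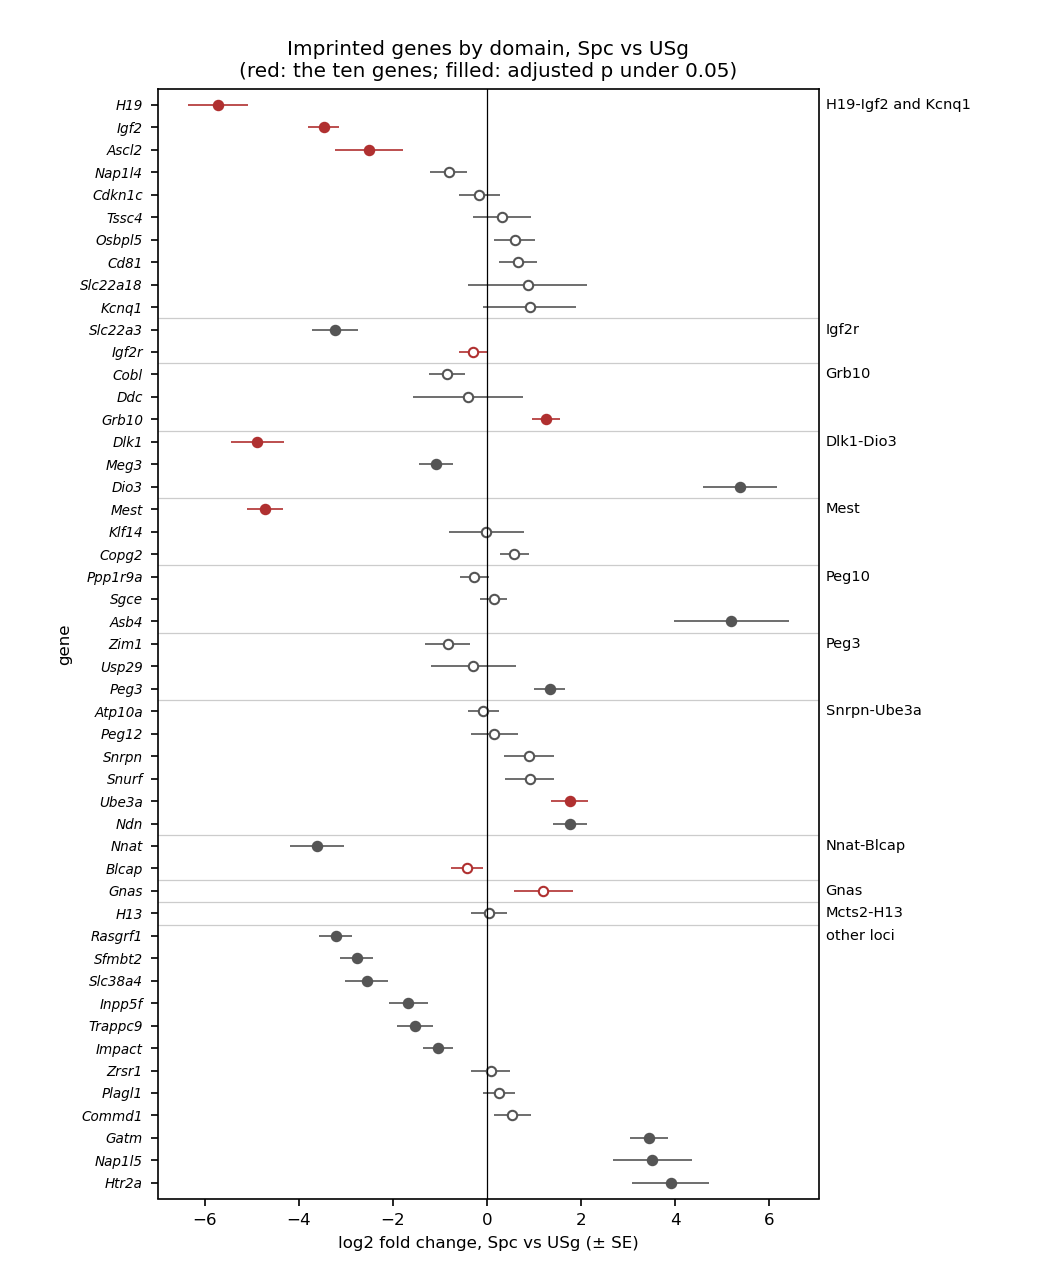
Log2 fold change ± SE in Spc against USg of the 49 imprinted genes tested, grouped by the imprinted domain they lie in; the members are in red and filled points have an adjusted p under 0.05. Within the Dlk1-Dio3 domain Dlk1 is at -4.88 and Dio3 at 5.39, and in the H19-Igf2 and Kcnq1 domain the 3 filled points are all members.

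Grouped by domain, neighbours often had different calls in Spc against USg. Over all tested genes 16.6% were called lower there and 17.9% higher, so mixed calls are not particular to these domains. Differences between neighbours were not tested. Of the 10 genes tested in the H19, Igf2 and Kcnq1 domain, 3 were lower in Spc than in USg, which were H19, Igf2 and Ascl2, and 0 were higher; the other 7 were not called. Of 6 tested in the Snrpn and Ube3a domain 2 were higher and 0 lower. Snrpn and Snurf, which share one transcript, had almost equal counts in each library (73 and 72 in Spc 1), so they are not independent. Of 3 tested beside Mest, including Mest itself, 1 was lower, and of 3 tested beside Grb10, including Grb10, 1 was higher.

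The enzymes and factors that set or keep imprints were read from a list of 17, of which 11 had a row and 10 were tested. None was called in DSg against USg by edgeR, where 3 of 10 had an unadjusted p under 0.05 beside 19.2% of all tested genes. In both Spc comparisons 5 were lower and 0 higher. Against USg these were Dnmt1, Dnmt3a, Dnmt3b, Dnmt3l and Uhrf1, and against DSg Ctcf stood in place of Uhrf1. Zfp57 and Trim28 were called in neither. Their log2 values were 0.12 ± 0.40 and 0.14 ± 0.30 against USg, and 1.05 ± 0.41 and 0.79 ± 0.30 against DSg. Of all tested genes 16.6% were called lower and 17.9% higher in Spc against USg, and 11.7% and 14.8% in Spc against DSg. Dnmt1, the maintenance methyltransferase, measured 978.54 and 1248.53 CPM in USg, 901.02 and 949.75 CPM in DSg, and 239.06 and 259.30 CPM in Spc (-2.16 ± 0.30 against USg, adjusted p = 0.00107). Dnmt3a, a de novo methyltransferase, was lower in Spc than in USg by -1.91 ± 0.31 (adjusted p = 0.00194), a call lost without Spc 2 (0.0634). Dnmt3b, the other one, was at 96.46 and 121.26 CPM in USg, 146.26 and 243.43 CPM in DSg and 34.88 and 47.25 CPM in Spc (-2.25 ± 0.37 against DSg, adjusted p = 0.00326). Dnmt3l, their cofactor in germ cells, was at 5.02 and 4.10 CPM in USg, 7.68 and 9.69 CPM in DSg and 0.20 and 0.87 CPM in Spc (-3.98 ± 0.84 against DSg, adjusted p = 0.00939). Spc held 5 counts of Dnmt3l in all, and the call was lost without Spc 1 (-3.20, adjusted p = 0.112). Uhrf1, which brings Dnmt1 to newly copied DNA, was lower in Spc than in USg by -1.85 ± 0.37 (adjusted p = 0.00527).

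For each member up to 3 tested genes with the most alike pattern over the 6 libraries were found, by the distance between log2 CPM profiles centred on their mean. Those most alike to Igf2 were Tanc1, Dab1 and Spint1, with Tanc1 at 211.07 and 200.85 CPM in USg, 101.01 and 87.52 CPM in DSg and 16.95 and 23.73 CPM in Spc. Mest was closest to Lypd1, Ret and Apoc1. Ret, the signalling receptor for GDNF and an undifferentiated marker, measured 716.54 and 605.03 CPM in USg, 113.54 and 85.63 CPM in DSg and 23.06 and 22.43 CPM in Spc. H19 was closest to Rasgrp2, Sox8 and Qprt, and Dlk1 to Rhox10 and Nell1, each of them also higher in USg 2 than in USg 1. Ascl2 was closest to Icam5, Kcnh4 and Abcg8, which were likewise highest in DSg 2. Gnas was closest to Ppp3ca, Ccnc and App, which shared its excess in library 1 of USg and DSg: Ppp3ca measured 50.55 and 20.12 CPM in USg and 40.40 and 14.00 CPM in DSg. The others were Golga3, Atm and Taf2 for Igf2r, Fam221a, Xpo6 and Bcl2l11 for Grb10, Cep290, Ankrd32 and Fnip1 for Ube3a, and Aprt, Begain and Rabl6 for Blcap. Among the members the closest pairs were Igf2r with Blcap (distance 1.17), Grb10 with Ube3a (1.33) and H19 with Dlk1 (1.54). Likeness here is a description over 6 libraries, and genes of a library share its depth and background.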

How the data were processed

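Read counts per gene symbol of the 6 RNA libraries were used as deposited by the authors, with no normalization. The submitters' processing notes name edgeR 3.2.4, Subread 1.4.6 with featureCounts, STAR 2.5.3a, Picard 1.127, HOMER and Bowtie2 2.2.3, with builds rn6 and rn5, and give no role for each. The strand setting and the annotation were not given in the sources read, and overlapping genes may share or lose reads. The 2 anti-Foxa2 immunoprecipitation samples were not analysed here.

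Genes were filtered with filterByExpr (minimum count 10, minimum total 15), scaled by TMM and compared in R 4.3.3 by edgeR 4.0.16 (quasi-likelihood F-test, glmQLFit and glmQLFTest; limma 3.58.1 was loaded with it). All 6 libraries entered 1 model, which left 3 residual degrees of freedom. The tests are two-sided, with Benjamini-Hochberg adjustment over the 12210 tested genes and a threshold of 0.05. SE is the absolute log2 change over the square root of F. The code was tested on simulated data. The alternatives were other scalings and filters, DESeq2 1.42.0, limma-voom, the 4 libraries compared, a replicate block, a 2-fold test and libraries left out. All 10 members matched RefSeq by symbol.

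The members and lists were chosen with earlier results of these data known. All members are named. Of the wider imprinted list, up to 5 higher and 5 lower per comparison are named, by log2 change, among called genes whose higher group averaged 5 CPM or more. Of each partner list up to 3 per comparison are named. Copg2 and Meg3, and Nnat and Igf2bp2 in DSg, were added after their values were seen. So were Notch2, Rbpj, Ctcf, Zfp57, Trim28 and the full calls of the imprint factor list in Spc. Of the genes most alike to the members, 1 is not reported here.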

Additional observations from a re-analysis of the deposited data

How the results depend on the processing

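The number of members called in DSg against USg was 1, and it became 2 with no filter, 2 with DESeq2, 2 with the replicate block and 8 when USg 1 and DSg 1 were both left out; leaving out 1 library at a time gave 0 to 3, with 0 without DSg 1 or DSg 2. In Spc against USg it was 7, then 4 in the test against a 2-fold change and 5 to 8 with 1 library left out. In Spc against DSg it was 6, then 3 in the 2-fold test and 3 to 8 with 1 library left out, the lowest without Spc 2. Of the wider imprinted list, the 1 call in DSg against USg became 0 with total-count scaling, 4 with no filter, 4 with DESeq2, 0 with the 4 libraries compared, 3 with the replicate block, 24 without both USg 1 and DSg 1 and 0 in the 2-fold test, and ranged from 0 to 8 with 1 library left out (8 without USg 1). Its 16 calls in Spc against USg became 10 in the 2-fold test and 8 to 18 with 1 library left out, the lowest without Spc 1 or Spc 2. Its 10 calls in Spc against DSg became 16 with the 4 libraries compared, 27 without both USg 1 and DSg 1 and 5 in the 2-fold test, and ranged from 5 to 16 with 1 library left out. Some settings also added calls among the members. In the 4 libraries compared, Igf2r, Gnas and Ube3a were added in Spc against DSg. Gnas was added there with no filter, DESeq2, limma-voom and the replicate block, and in Spc against USg with no filter and the block. Where a library left out leaves 1 in its group, that one is assumed to vary like the other groups. Without both USg 1 and DSg 1 the spread comes from the 2 Spc libraries alone, the group with the smallest spread, and 45.1% of all genes were called in DSg against USg, so the counts of 8, 24 and 27 are no sign of stronger changes. The cause of the other shifts was not tested.

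Among the changes followed over the alternatives, directions turned only for members whose change was not called. For named genes other than the members, not every comparison was followed. In DSg against USg, Grb10 became -0.16 with no filter and -0.083 without USg 1 and DSg 1, and Ascl2 became -0.24 with no filter, -0.21 with limma-voom and -0.10 with the replicate block. In Spc against USg, Igf2r became 0.017 without USg 1 and DSg 1, and in Spc against DSg, Blcap became 0.091 with no filter and 0.18 without those libraries. With 1 library left out, DSg against USg ranged from -1.31 to 0.28 for Dlk1, -0.144 to -0.030 for Grb10, -1.38 to 0.47 for Ascl2 and -1.73 to 0.50 for Gnas, Spc against USg from -0.55 to 0.0037 for Igf2r, and Spc against DSg from -0.16 to 0.24 for Blcap. No other direction turned among the changes followed. All alternatives were planned, and the cause was not tested.

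The replicate numbers do not pair the libraries by the labels. With the replicate block, H19 (-2.01, adjusted p = 0.0246), Nnat (-2.26, 0.00647) and Igf2bp2 (-1.89, 0.0151) passed in DSg against USg, and Gnas passed in Spc against USg (1.52, 0.0145) and in Spc against DSg (2.01, 0.00375). Meg3 was lost in Spc against USg (-1.07, 0.0575), and no other call differed among the changes followed. The deviations of same-numbered libraries correlated by 0.25 between USg and DSg, -0.27 between USg and Spc and 0.01 between DSg and Spc. Depth limits Ascl2 most, with 25 counts in Spc, and Mest, with 37.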
